A study of Mus musculus with 11 samples.

Results

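The 10 genes described here mark T cells and natural killer (NK) cells: Cd3d, Cd3e, Cd3g, Cd4, Cd8a, Il2rg, Il7r, Gzma, Gzmb and Nkg7. They were chosen by gene symbol, with earlier results of these data known, from the 17181 symbols of the deposited expression table. Each symbol was found once. Bulk poly(A) RNA came from 11 tumours of 4T1, a mammary carcinoma line of mouse origin that stands for triple-negative disease, injected subcutaneously in either flank. Dosing began once tumours measured about 100 mm3 and ran for 12 days. Vehicle had 2 tumours and each drug arm had 3. OPG-Fc was given into the peritoneum at 10 mg/kg, 3 times a week, palbociclib was given by mouth at 30 mg/kg per day, and the combination received both at those doses. OPG-Fc is a decoy receptor for RANKL, and palbociclib inhibits the kinases CDK4 and CDK6.

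The design text names NSG mice as hosts for every group. NSG mice lack mature T cells, B cells and NK cells and carry no working Il2rg gene. The title calls the model syngeneic and the genotype label reads WT, so the labels do not settle which lymphocytes the hosts could hold. Nor is it stated whether tumours shared an animal, and p-values therefore measure only the spread between these tumours, which may be technical in part. The table's headers give OPG-Fc replicates 2 and 3 a common first number, and likewise combination replicates 1 and 2, with no explanation. Values are FPKM, fragments corrected for transcript length and library size, so that levels of different genes can be set side by side per length.

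CD3 chains (Cd3d, Cd3e, Cd3g) carry the signal of the T cell receptor into the cell, while CD4 and CD8 are coreceptors that bind class II and class I MHC molecules. Il2rg encodes the common gamma chain shared by the receptors of several interleukins, Il7r encodes the receptor chain through which interleukin 7 keeps T cells alive, and both are also found on some other leukocytes. Granzymes are proteases that killer cells release into their targets, and Nkg7 encodes a membrane protein of cytotoxic granules. In tumours these genes are commonly read as a measure of infiltrating lymphocytes, although a bulk value cannot tell fewer cells of a type from less RNA per cell.

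A pair of libraries stood apart from the other 9. Markers of B and plasma cells (12 genes) summed to an FPKM of 7054 in vehicle replicate 2 and 800 in OPG-Fc replicate 2, against 1.05 to 18.3 in the other 9, where at most 4 of the 12 reached an FPKM of 1 and up to 4 were listed at 0. Markers of lymph node stroma (7 genes) summed to 1821 and 269 in the same 2 libraries and to 5.89 to 50.8 in the others. Epithelial markers (8 genes), the labelled cell type, summed to 54.4 in vehicle replicate 2 and to between 2390 and 3462 in the other 10. Results are therefore given with all 11 libraries and without vehicle replicate 2 and OPG-Fc replicate 2, where the vehicle group is 1 library assumed to vary like the rest. The part of the B cell and stromal content in the results below was not tested.

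Stretches of the promoters of Gzma, Gzmb and Il2rg are shown because these genes gave the contrasting results: Gzma followed the other T cell genes, Gzmb did not, and Il2rg passed for OPG-Fc in fits without vehicle replicate 2. Each is the 250 bases before the annotated start on the gene's own strand, from RefSeq for the build GRCm38.p6, while the expression table was made on GRCm39. The Gzma stretch is chr13:113100982-113101231 (minus strand), the Gzmb stretch chr14:56262335-56262584 (minus strand) and the Il2rg stretch chrX:101268256-101268505 (minus strand). Capitals mark matches on either strand to TGTGGT, the core letters of RUNX sites, or to CCGGAA, a form of ETS site.
Gzma: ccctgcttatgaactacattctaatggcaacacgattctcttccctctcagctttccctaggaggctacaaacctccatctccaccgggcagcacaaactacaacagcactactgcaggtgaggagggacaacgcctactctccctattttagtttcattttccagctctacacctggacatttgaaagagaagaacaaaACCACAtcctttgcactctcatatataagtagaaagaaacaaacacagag
Gzmb: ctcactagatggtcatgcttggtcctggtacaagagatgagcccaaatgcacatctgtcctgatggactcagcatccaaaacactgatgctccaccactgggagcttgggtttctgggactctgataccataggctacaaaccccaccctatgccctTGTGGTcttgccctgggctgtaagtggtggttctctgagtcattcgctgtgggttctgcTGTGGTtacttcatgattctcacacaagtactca
Il2rg: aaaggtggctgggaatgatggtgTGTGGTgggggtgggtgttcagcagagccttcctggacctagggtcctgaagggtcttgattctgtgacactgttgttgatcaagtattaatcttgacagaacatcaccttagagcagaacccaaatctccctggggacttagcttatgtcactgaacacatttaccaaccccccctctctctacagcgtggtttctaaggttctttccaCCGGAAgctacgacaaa
A promoter entry existed for 9 of the 10 genes, all but Cd4. TGTGGT or its reverse complement was found in 4 of the 9, at 50 bases before the start in Gzma, 93 and 34 in Gzmb, 227 in Il2rg and 83 in Nkg7. Over all 32851 promoters of the same length, 14.0% held it. CCGGAA was found in 1 of the 9, at 17 bases before the start of Il2rg, and in 12.0% of all promoters. TATAAA, the TATA box letters, was found in 0 of the 9 and in 12.4% of all. The searched motifs share no letters in these stretches, and a match describes the sequence only. The starts of Cd3d and Cd3g lie 1354 bases apart on chromosome 9, on opposite strands.

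The CD3 chains were highest in vehicle replicate 2, second in OPG-Fc replicate 2 and detectable at a low level in the rest. Cd3e, the chain without which the receptor does not assemble, had an FPKM of 1.74 and 56.2 in the vehicle libraries, 1.11, 9.63 and 3.15 with OPG-Fc, 1.98, 1.35 and 0.59 with palbociclib and 1.07, 1.38 and 2.59 with the combination. Cd3d, which pairs with Cd3e, was at 1.43 and 74.3 in vehicle, 0.97, 14.7 and 4.11 with OPG-Fc, 1.84, 2.77 and 0.95 with palbociclib and 1.39, 1.65 and 4.53 with the combination. Within the vehicle and OPG-Fc groups 1 library lay far above its group mates, and the ranges of all 4 groups overlapped for both genes.

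Cd3g, the gamma chain of the complex, had the highest level per length of the CD3 chains. It was at 10.4 and 148 in vehicle, 2.40, 29.8 and 11.7 with OPG-Fc, 8.50, 10.9 and 4.55 with palbociclib and 6.78, 7.61 and 16.0 with the combination. The order of libraries was the same at the top, but the 9 other libraries kept more Cd3g relative to Cd3d. The ratio of Cd3g to Cd3d was 2.00 in vehicle replicate 2 and 2.03 in OPG-Fc replicate 2, below the range of 2.47 to 7.29 in the other 9 (median 4.61). The ratio of Cd3d to Cd3e, at 1.32 and 1.52 in the 2 libraries, lay within the range of 0.822 to 2.05 of the others.

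**Figure D1:**
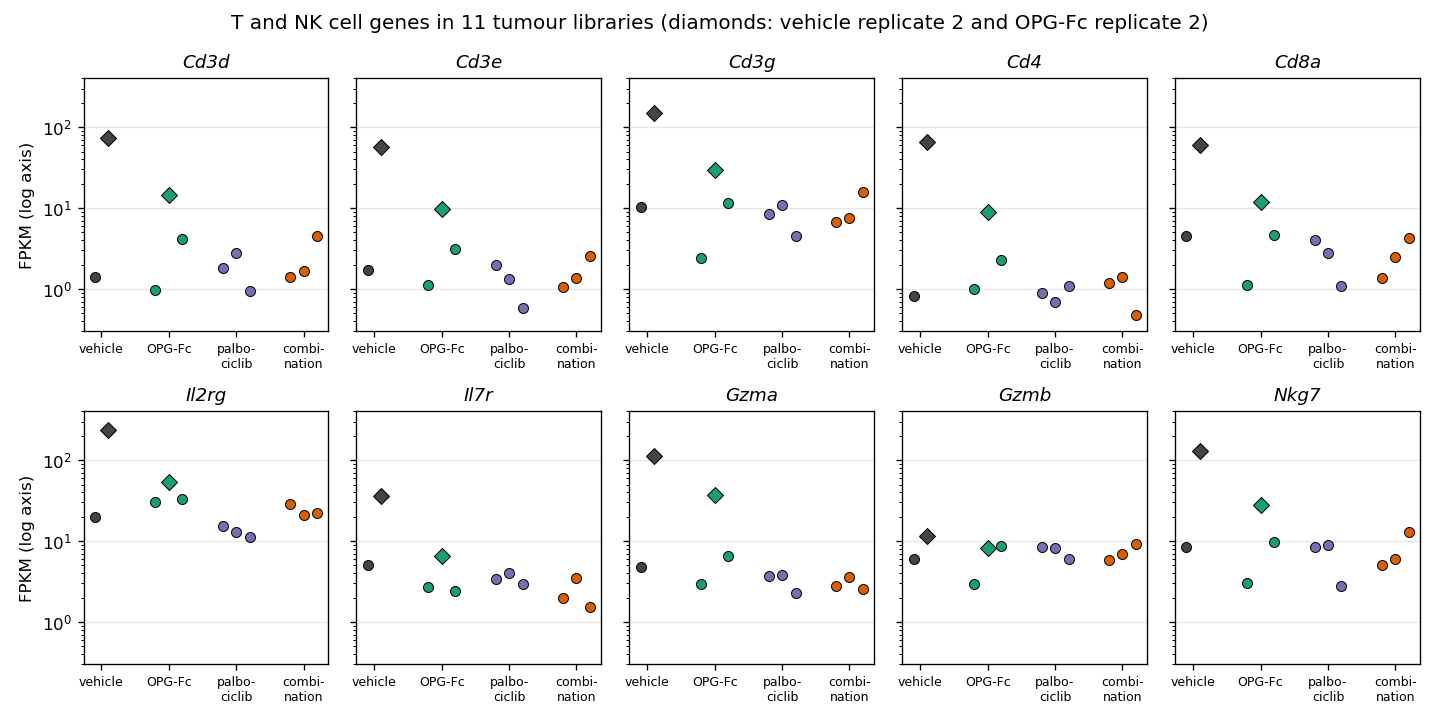
FPKM of each of the 10 genes in all 11 libraries, on a log axis, 1 point a library, by treatment group; diamonds are vehicle replicate 2 and OPG-Fc replicate 2. For 9 genes both diamonds lie above every circle, with Cd4 at 66.0 and 9.02 against 0.48 to 2.31; Gzmb is the exception, at 11.5 and 8.27 against 2.92 to 9.32.

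The coreceptors were likewise highest in vehicle replicate 2 and second in OPG-Fc replicate 2. Cd4, the coreceptor of helper T cells, which mouse macrophages largely lack, was at 0.82 and 66.0 in vehicle, 1.00, 9.02 and 2.31 with OPG-Fc, 0.89, 0.69 and 1.10 with palbociclib and 1.20, 1.40 and 0.48 with the combination. Among the 9 libraries it reached an FPKM of 1 in 5, the fewest of the 10 genes. Cd8a, the alpha chain of the coreceptor of cytotoxic T cells, was at 4.48 and 60.3 in vehicle, 1.11, 12.0 and 4.69 with OPG-Fc, 4.00, 2.82 and 1.10 with palbociclib and 1.36, 2.47 and 4.33 with the combination. Every Cd8a value with palbociclib or the combination lay below both vehicle values, while OPG-Fc overlapped with vehicle. The ratio of Cd4 to Cd8a was 1.09 in vehicle replicate 2 and 0.752 in OPG-Fc replicate 2, against 0.111 to 1.00 in the other 9. Cd8b1, the beta chain that pairs with Cd8a on T cells, ran alongside, at 67.7 in vehicle replicate 2, 12.2 in OPG-Fc replicate 2 and 0.87 to 4.24 elsewhere.

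Il2rg had the highest level of the 10 genes in every library. It was at 19.8 and 238 in vehicle, 30.1, 54.5 and 33.1 with OPG-Fc, 15.3, 13.0 and 11.4 with palbociclib and 28.4, 21.1 and 22.5 with the combination. All 3 palbociclib values lay below all 8 values of the other groups, a separation found in 3.95% of the 13074 genes tested. The combination lay between palbociclib and OPG-Fc with no overlap on either side, which was found for 13.7% of genes above palbociclib and 23.5% below OPG-Fc. Group means were 129 ± 154 in vehicle (SD, n = 2), 39.2 ± 13.3 with OPG-Fc, 13.2 ± 1.97 with palbociclib and 24.0 ± 3.89 with the combination (SD, n = 3 each). The table gives 1 value for each gene, so it does not show which Il2rg allele was read.

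Set against T cell and macrophage genes, Il2rg differed between the 2 libraries and the rest. Relative to Cd3e it was 4.23 in vehicle replicate 2 and 5.66 in OPG-Fc replicate 2, below the range of 7.73 to 27.1 in the other 9. Relative to Csf1r, the receptor of the macrophage growth factor, it was 1.99 in vehicle replicate 2, 0.645 in OPG-Fc replicate 2 and 0.341 to 0.584 in the other 9. The macrophage markers themselves (10 genes, all at an FPKM of 1 or more in every library and none at 0) summed to 1017 and 1855 in vehicle, 1546 to 1666 with OPG-Fc, 975 to 2105 with the combination and 668 to 875 with palbociclib.

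Across the 9 libraries Il2rg moved with the mean log2(FPKM + 1) of those 10 macrophage markers (Pearson's r = 0.97, exact permutation p = 1.1e-05, adjusted p = 0.00022; Spearman's rho = 0.98, adjusted p = 0.000992; two-sided, 20 relations tested). Without the 2 libraries farthest from the median of the macrophage mean, r was 0.95. With the mean of the 16 T cell receptor and signalling genes in the table, r for Il2rg was 0.80 (exact permutation, adjusted p = 0.0421; rho = 0.95, adjusted p = 0.00353) and 0.58 without the 2 farthest libraries. These 16, called T cell receptor genes below, include Ptprc, Lcp2 and Fyb, which other leukocytes also express. They include none of the receptor chain genes Trac, Trbc1, Trbc2 and Trdc. Whether the 2 relations differ was not tested.

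The other 9 genes showed no relation with the macrophage mean that passed: r ran from -0.63 for Il7r to 0.40 for Cd3e, with the lowest adjusted p at 0.291 by exact permutation. With the T cell receptor mean, Cd3e had r = 0.85 (exact permutation, adjusted p = 0.0401) but rho = 0.53 (adjusted p = 0.592), and r = 0.52 without the 2 farthest libraries, so that relation rested on those libraries. The 9 libraries belong to 4 treatments with at most 3 each, too few for a value within a group, so treatment and these relations cannot be told apart.

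**Figure D2:**
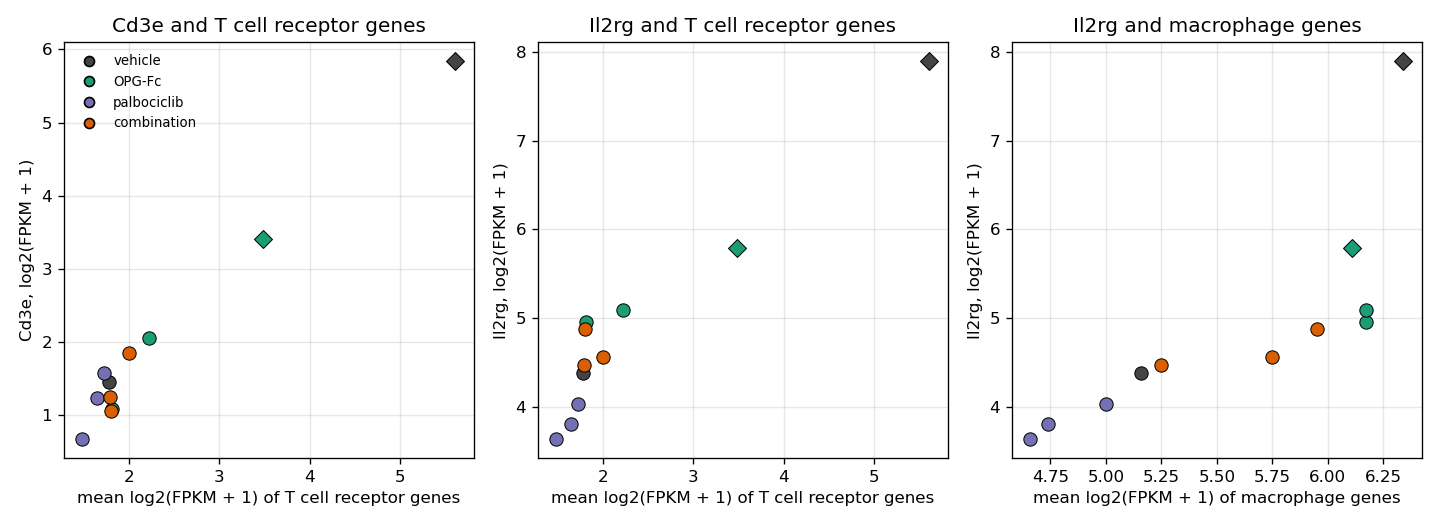
Log2(FPKM + 1) of Cd3e (left) and Il2rg (middle) against the mean log2(FPKM + 1) of 16 T cell receptor and signalling genes. The right panel shows Il2rg against the mean of 10 macrophage genes. Each point is 1 library, coloured by treatment, with diamonds for vehicle replicate 2 and OPG-Fc replicate 2. In the right panel the 9 circles rise from palbociclib to OPG-Fc (r = 0.97), and both diamonds lie above them.

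Il7r behaved differently from Il2rg among the 9 libraries. It was at 5.01 and 36.1 in vehicle, 2.71, 6.46 and 2.41 with OPG-Fc, 3.43, 4.00 and 2.94 with palbociclib and 1.99, 3.53 and 1.55 with the combination. Vehicle replicate 1 was the highest of the 9, and all palbociclib and combination values lay below both vehicle values. Relative to Cd3e, Il7r was 0.642 and 0.671 in the 2 libraries, near the bottom of the range of 0.598 to 4.98 in the others. Other receptor chains that pair with the common gamma chain differed between the 9: Il2rb, shared by the interleukin 2 and 15 receptors, was at 3.74 to 13.6 (93.9 in vehicle replicate 2), and Il21r, of the interleukin 21 receptor, at 1.60 to 6.31 (71.3 in vehicle replicate 2). Jak3, the kinase bound to the common gamma chain, was at 47.2 to 61.0 in the 9 and at 49.9 in vehicle replicate 2, so it did not mark that library.

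The granzymes split. Gzma, the granzyme most widely made by NK cells and some T cells, was at 4.77 and 113 in vehicle, 2.99, 37.5 and 6.54 with OPG-Fc, 3.74, 3.77 and 2.27 with palbociclib and 2.79, 3.58 and 2.59 with the combination. Its excess in OPG-Fc replicate 2 was the largest of the 10 genes, at 10.5 times the median of the 9. Gzmb, the granzyme that activates caspases in target cells, was at 6.02 and 11.5 in vehicle, 2.92, 8.27 and 8.82 with OPG-Fc, 8.36, 8.20 and 6.02 with palbociclib and 5.82, 6.96 and 9.32 with the combination.

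Gzmb overlapped between all groups and stood out little in the 2 libraries, at 1.65 times the median of the 9 in vehicle replicate 2 and 1.19 times in OPG-Fc replicate 2. It exceeded Gzma in 8 of the 9 libraries, where the ratio of Gzmb to Gzma ran from 0.977 to 3.60 with a median of 2.09. In vehicle replicate 2 the ratio was 0.102 and in OPG-Fc replicate 2 it was 0.221. The mean of Gzmb was 8.76 ± 3.87 in vehicle (SD, n = 2), 6.67 ± 3.26 with OPG-Fc, 7.53 ± 1.31 with palbociclib and 7.37 ± 1.79 with the combination (SD, n = 3 each).

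Granzymes of the Gzmc to Gzmg cluster, which were looked up after the values of Gzmb had been seen, were lowest in vehicle replicate 2, where the T cell genes were highest. Gzmc was at 12.1 and 0.68 in vehicle, 10.8, 19.0 and 17.8 with OPG-Fc, 15.5, 20.9 and 13.2 with palbociclib and 16.5, 9.28 and 32.8 with the combination. Gzme was at 37.0 in vehicle replicate 1, listed at 0 in vehicle replicate 2 and between 17.9 and 81.1 in the other 9, and Gzmd and Gzmg were also listed at 0 in vehicle replicate 2. The 5 genes summed to an FPKM of 0.74 in vehicle replicate 2, which also had the least of the epithelial markers, 133 in OPG-Fc replicate 2, 186 in combination replicate 3 and 51.6 to 97.4 in the other 8. The opposition to the T cell genes was therefore not seen in OPG-Fc replicate 2. These genes are close copies of one another, so how the fragments were divided among them is uncertain.

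**Figure D3:**
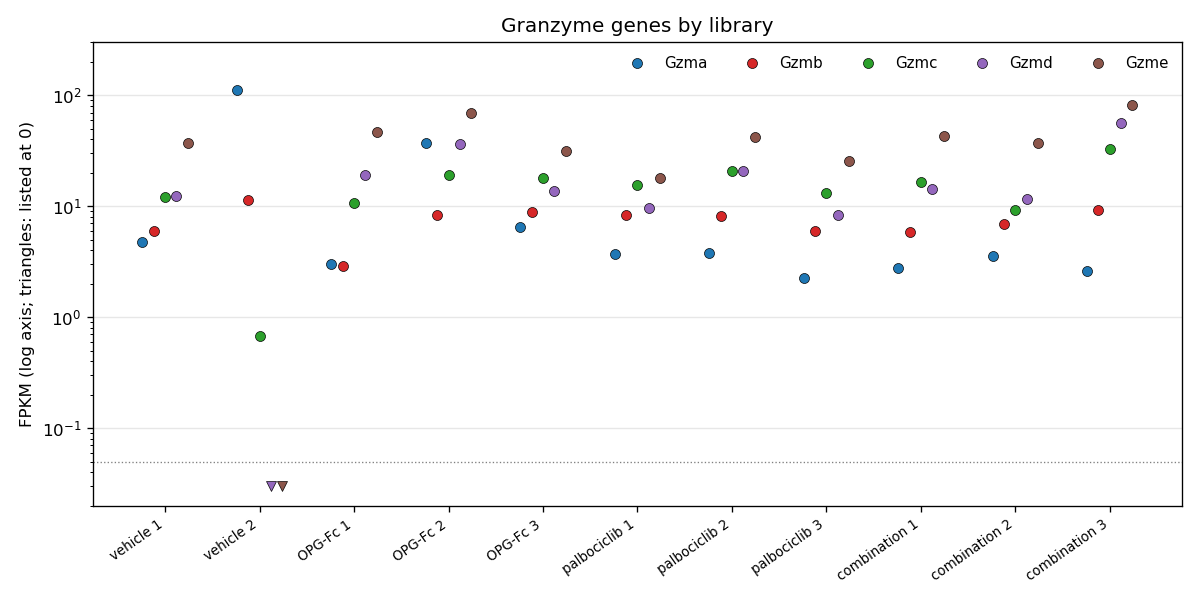
FPKM of 5 granzyme genes in each library, on a log axis; each colour is a gene and triangles mark a gene listed at 0. In vehicle replicate 2 Gzma stands at 113 while Gzmc is at 0.68 and Gzmd and Gzme are listed at 0; in the other 10 libraries Gzmc, Gzmd and Gzme lie between 8.34 and 81.1.

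Nkg7 was at 8.34 and 131 in vehicle, 3.06, 28.1 and 9.66 with OPG-Fc, 8.46, 8.92 and 2.80 with palbociclib and 5.12, 6.08 and 13.1 with the combination. It ran close to Cd3g, with a ratio of Nkg7 to Cd3g of 0.885 in vehicle replicate 2, 0.944 in OPG-Fc replicate 2 and 0.615 to 1.28 in the rest. Ncr1, the NK cell receptor NKp46, was low throughout, at 8.95 in vehicle replicate 2, 2.62 in OPG-Fc replicate 2 and 0.24 to 1.21 elsewhere. Prf1, the pore-forming protein perforin, was at 10.0, 3.30 and 0.52 to 2.75 in the same order. Ccl5, a chemokine made by activated T and NK cells among others, was at 285 in vehicle replicate 2, 95.2 in OPG-Fc replicate 2 and 17.1 to 55.2 in the 9.

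Signal of all 10 genes was present outside the 2 libraries. Of the 90 values in the other 9 libraries, 0 were at 0, all 90 were at 0.1 or more, 83 were at 1 or more and 33 were at 5 or more, with a lowest value of 0.48 and a highest of 33.1. All 10 genes reached an FPKM of 1 in at least 1 of the 9, as did 98.9% of the 13074 genes tested, and 7 reached it in all 9, against 86.2% of those genes. The 3 that did not were Cd3d, Cd3e and Cd4. In vehicle replicate 2 all 10 genes were higher than in every other library, which held for 34.8% of the genes tested. In OPG-Fc replicate 2, 9 of the 10, all but Gzmb, were higher than in each of the 9, against 15.4% of the genes tested.

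The size of the excess differed between genes. Vehicle replicate 2 exceeded the median of the 9 by 66.0 times for Cd4, 45.0 times for Cd3d, 40.7 times for Cd3e and 31.4 times for Gzma. The excess was 21.4 times for Cd8a, 17.5 times for Cd3g, 15.8 times for Nkg7, 12.3 times for Il7r and 11.3 times for Il2rg. OPG-Fc replicate 2 exceeded the same medians by 2.20 to 10.5 times for the 9 genes other than Gzmb.

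**Figure D4:**
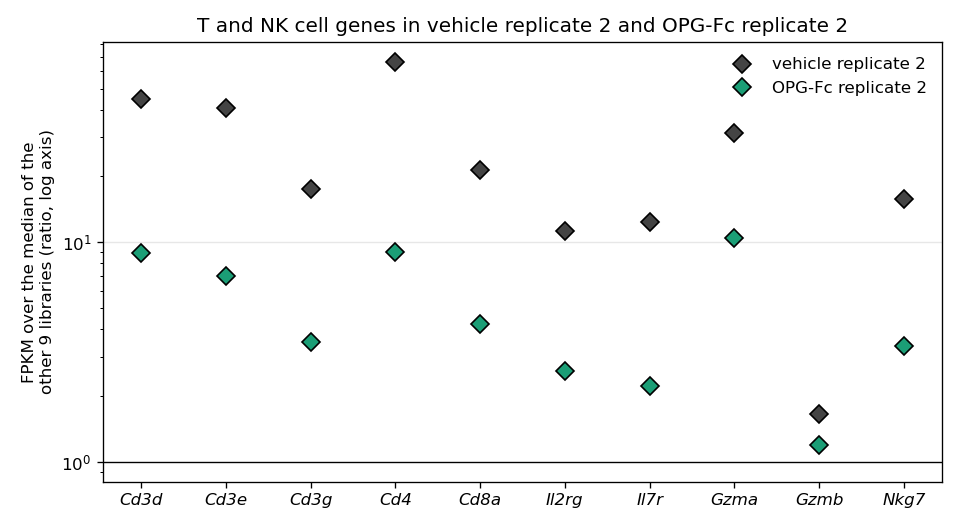
FPKM in vehicle replicate 2 (grey) and OPG-Fc replicate 2 (green) divided by the median of the other 9 libraries, on a log axis, for each of the 10 genes. Cd4 stands highest in vehicle replicate 2 (66.0) and Gzma in OPG-Fc replicate 2 (10.5), and Gzmb lies lowest in both (1.65 and 1.19).

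Among the 9 libraries the level varied by library within each treatment. The mean log2(FPKM + 1) over the 10 genes was 2.51 in vehicle replicate 1, 1.87 and 2.88 in OPG-Fc replicates 1 and 3, 2.45, 2.43 and 1.83 with palbociclib and 2.14, 2.35 and 2.63 with the combination. It was 6.19 in vehicle replicate 2 and 4.14 in OPG-Fc replicate 2. OPG-Fc replicate 3 was the highest of the 9 for 5 genes and combination replicate 3 for 4. Palbociclib replicate 3 was the lowest for 6, OPG-Fc replicate 1 for 2 and combination replicate 3 also for 2, Cd4 and Il7r. The share over all genes is not given for these counts, so they are a description only. B and plasma cell markers, which summed to 18.3 in combination replicate 3, were at 15.8 in OPG-Fc replicate 3, 14.3 in vehicle replicate 1, 17.2 in OPG-Fc replicate 1 and at most 1.35 in the palbociclib libraries. Their part in these levels was not tested.

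Most other T cell genes were also highest in vehicle replicate 2. Of 16 T cell receptor and signalling genes in the table, 15 were highest in vehicle replicate 2, and so were 21 of 22 other T cell identity genes, 20 of 24 NK and cytotoxic genes and 13 of 20 genes of the common gamma chain family, against 34.8% of the genes tested. The common gamma chain family summed to 599 in vehicle replicate 2 and to 383 to 663 in the 9. Those sums include Tslp, which was far lower in vehicle replicate 2 than in the 9 (values below). The median FPKM of the family was 13.9 in vehicle replicate 2, 14.3 in OPG-Fc replicate 2 and 6.58 to 12.4 in the 9. Of the NK and cytotoxic list, Gzmc, Ifng, Il18rap and Sh2d1b1 were not highest there, and Il18rap, a chain of the interleukin 18 receptor, was at 6.05 there and at 12.4 to 29.1 in the 9. In the 9 libraries Lck, the kinase that starts T cell receptor signalling, was at 2.61 to 7.92 (158 in vehicle replicate 2), the adhesion receptor Cd2 at 1.49 to 6.10 (133) and the adaptor Lat at 0.98 to 5.58 (99.8). Thy1, which fibroblasts also express, was at 77.03 to 129.84 in the 9 and 130.47 in vehicle replicate 2. Tslp, a cytokine of epithelial cells whose receptor contains the Il7r chain, was at 126 to 410 in the 9 and 1.55 in vehicle replicate 2. That library also had the least of the epithelial markers. In OPG-Fc replicate 2 Tslp was at 138, within the range of the 9, so the opposition to the T cell genes was not seen there.

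The comparison of OPG-Fc with vehicle addresses RANKL blockade alone. Log2 fold changes of the 10 genes lay between -1.91 and -0.40 (median -1.46, against 0.04 over all genes), and 0 of the 10 passed in limma (adjusted p under 0.05), as did 0.0% of all genes. At an unadjusted p under 0.05 there was 1 of the 10, Il7r, against 10.2% of all genes. Il7r was at -1.71 ± 0.65 (SE, adjusted p = 0.471) and Cd8a at -1.77 ± 0.99 (adjusted p = 0.482). No gene of the 10 separated the groups, which 12.7% of genes did upward and 8.57% downward. Without vehicle replicate 2 and OPG-Fc replicate 2 the median over the 10 was -0.13.

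Palbociclib against vehicle gave fold changes between -2.61 and -0.15 (median -2.31, against -0.04 over all genes). In limma 0 of the 10 passed, as did 0.0% of all genes, and 5 had an unadjusted p under 0.05 (Cd3e, Cd8a, Il2rg, Il7r and Gzma), against 28.1% of all genes. Il2rg was at -2.32 ± 0.78 (SE, adjusted p = 0.158) and Il7r at -1.75 ± 0.65 (adjusted p = 0.159). Cd8a, Il2rg, Il7r and Gzma lay lower in every palbociclib library than in both vehicle libraries, as did 20.2% of all genes. Without the 2 libraries the median was -0.41 and Il2rg was at -0.56 ± 0.21 (limma, adjusted p = 0.509).

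For the combination against vehicle the fold changes lay between -2.69 and -0.18 (median -2.12, against -0.01 over all genes). In limma 0 of the 10 and 0.0% of all genes passed, and 3 of the 10 (Cd8a, Il7r and Gzma) had an unadjusted p under 0.05, against 29.6% of all genes. The same 3 genes lay below both vehicle values in every combination library, as did 17.8% of all genes. Il7r was at -2.20 ± 0.65 (SE, adjusted p = 0.0859) and Cd8a at -2.38 ± 0.99 (adjusted p = 0.151). Without the 2 libraries the median was -0.10, and Il7r was at -0.88 ± 0.31 (adjusted p = 0.165). The 3 comparisons with vehicle share the vehicle libraries, and the palbociclib and combination values are therefore not independent of each other.

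Each comparison with vehicle turned on the vehicle library used. Without vehicle replicate 1, where vehicle replicate 2 alone stands for the group, 9 of the 10 genes (all but Gzmb) passed in limma as lower with OPG-Fc, palbociclib and the combination. Among all genes, 19.2%, 28.4% and 26.8% passed as lower in those comparisons. The same 9 genes passed as lower for each drug averaged over the other, with 29.6% of all genes for palbociclib and 13.3% for OPG-Fc, and as higher for the interaction, with 18.2%. The median fold changes of the 10 genes without vehicle replicate 1 were -3.56 for OPG-Fc, -4.19 for palbociclib and -4.04 for the combination, each against vehicle. Without vehicle replicate 2 they were 0.47, -0.41 and -0.10 in the same order.

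The combination was set against each single drug to show what the second drug adds. Against palbociclib the fold changes lay between -0.45 and 0.81 (median 0.15, against 0.02 over all genes), 0 of the 10 and 0.0% of all genes passed in limma, and 0 of the 10 had an unadjusted p under 0.05, against 6.75% of all genes. Il2rg was at 0.81 ± 0.69 (SE, adjusted p = 0.807) and Il7r at -0.45 ± 0.58 (adjusted p = 0.876). Neither group holds vehicle replicate 2 or OPG-Fc replicate 2, but the fit shares 1 estimate of the spread over all groups. Lymph node stroma markers summed to 50.8 in combination replicate 3, against 11.4 and 12.3 in combination replicates 1 and 2. With palbociclib they summed to 10.1 to 12.3, and their part in this comparison was not tested. Without vehicle replicate 2 and OPG-Fc replicate 2 the estimate for Il2rg was the same with a smaller error, 0.81 ± 0.15 (limma, adjusted p = 0.0895).

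Against OPG-Fc the combination gave fold changes between -1.41 and 0.22 (median -0.63, against -0.07 over all genes). In limma 0 of the 10 passed, against 0.0994% of all genes, and 0 of the 10 had an unadjusted p under 0.05, against 15.5% of all genes. Gzma was at -1.41 ± 1.04 (SE, adjusted p = 0.525) and Cd4 at -1.03 ± 1.09 (adjusted p = 0.675). Without the 2 libraries the median was -0.05 and Il2rg was at -0.39 ± 0.17 (limma, adjusted p = 0.178).

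Averaged over OPG-Fc, palbociclib gave fold changes between -2.01 and 0.03 (median -1.50, against -0.04 over all genes). In limma 0 of the 10 passed, against 2.83% of all genes, and 5 had an unadjusted p under 0.05, against 33.9% of all genes. Il2rg was at -1.48 ± 0.52 (SE, adjusted p = 0.0974) and Gzma at -2.01 ± 0.78 (adjusted p = 0.115). Without the 2 libraries the median was -0.20 and Il2rg was at -0.48 ± 0.14 (limma, adjusted p = 0.087). The interaction of the drugs lay between 0.36 and 2.20 (median 1.62, against -0.02 over all genes), with 0 of the 10 and 0.0% of all genes passing in limma. At an unadjusted p under 0.05 there were 0 of the 10, against 5.42% of all genes. Il2rg was at 1.67 ± 1.04 and Cd3g at 2.20 ± 1.46 (SE, adjusted p = 0.647 for both), and the median without the 2 libraries was 0.15.

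For OPG-Fc averaged over palbociclib, Il2rg passed in fits without vehicle replicate 2 and not with all 11 libraries. With all 11 libraries the fold changes lay between -1.08 and -0.02 (median -0.69, against 0.03 over all genes), 0 of the 10 and 0.0% of all genes passed in limma, and 1 of the 10 had an unadjusted p under 0.05, against 10.5% of all genes. Il7r was at -1.08 ± 0.44 (SE, adjusted p = 0.448), Cd8a at -0.86 ± 0.66 (adjusted p = 0.601) and Il2rg at -0.02 ± 0.52 (adjusted p = 0.988). Without vehicle replicate 2 and OPG-Fc replicate 2, Il2rg rose by 0.73 ± 0.14 (limma, adjusted p = 0.0429), when 1.73% of all genes passed. Without vehicle replicate 2 alone it rose by 0.86 ± 0.19 (adjusted p = 0.0402), when 3.57% passed. Without vehicle replicate 1 all 10 genes were lower, Il2rg among them. With 1 library left out at a time, the Il2rg estimate ran from -0.90 to 0.86, so its sign depended on the libraries kept. Il2rg was followed up here after its values had been seen.

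Other cell types' markers moved with Il2rg in that fit without the 2 libraries. Of the 10 macrophage markers, 2 rose, Csf1r by 0.84 ± 0.12 (limma, adjusted p = 0.0293) and Cd163, a scavenger receptor of macrophages, by 2.79 ± 0.53 (adjusted p = 0.0437), with a median over the list of 0.74. Of the 6 adipocyte markers 5 were tested and 4 rose (Plin1, Fabp4, Cidec and Pparg). In the libraries of that fit the summed adipocyte level was 493 and 802 with OPG-Fc, 76.9 to 407 with the combination, 49.2 to 69.8 with palbociclib and 54.3 in vehicle, and in the libraries left out it was 642 in vehicle replicate 2 and 1351 in OPG-Fc replicate 2. Of the common gamma chain family 1 of 16 rose, Il21r by 0.81 ± 0.16 (adjusted p = 0.0442), and of the T cell receptor list 1 of 11 rose, the adaptor Fyb by 0.70 ± 0.14 (adjusted p = 0.049). Of the other T cell identity genes 0 of 15 and of the NK and cytotoxic genes 0 of 16 passed. At an unadjusted p under 0.05, where 17.0% of all genes lay, there were 9 of the 10 macrophage markers, 5 of the 5 adipocyte markers, 5 of the 11 T cell receptor genes, 2 of the 16 genes of the common gamma chain family, 1 of the 15 other T cell identity genes and 2 of the 16 NK and cytotoxic genes. Their part in the Il2rg result was not tested.

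In the other 7 comparisons without the 2 libraries, 0 of the 10 genes passed in limma. The share of all genes that passed was 0.00784% for OPG-Fc and palbociclib and 0.0314% for the combination, each against vehicle. It was 0.0% for the combination against palbociclib, 0.714% for the combination against OPG-Fc, 1.35% for palbociclib averaged over OPG-Fc and 0.0% for the interaction. At an unadjusted p under 0.05 there were 2 of the 10 for OPG-Fc against vehicle (Il2rg and Il7r; 9.47% of all genes), 1 for palbociclib (Il2rg; 9.22%) and 1 for the combination (Il7r; 22.2%), both likewise against vehicle. There was 1, Il2rg, for the combination against palbociclib (16.9%), against OPG-Fc (27.2%) and for palbociclib averaged over OPG-Fc (27.4%), 2 for OPG-Fc averaged over palbociclib (Il2rg and Il7r; 17.0%) and 0 for the interaction (3.95%).

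**Figure D5:**
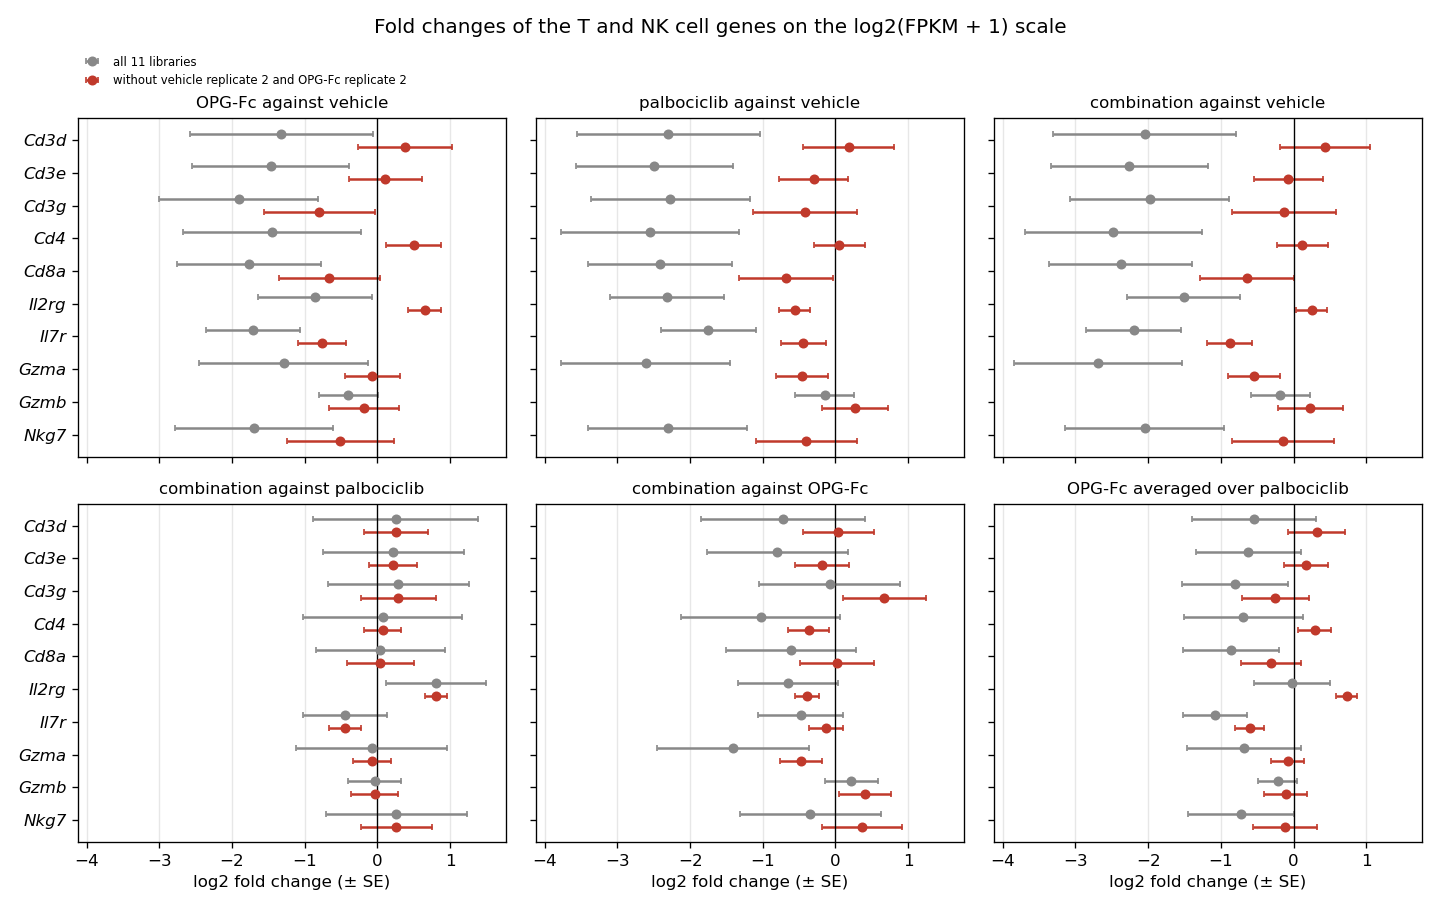
Log2 fold changes of the 10 genes (points) with standard errors (bars) in 6 comparisons, with all 11 libraries (grey) and without vehicle replicate 2 and OPG-Fc replicate 2 (red). Against vehicle the grey points run down to -2.69 while the red ones stay between -0.88 and 0.65; for OPG-Fc averaged over palbociclib the red point of Il2rg is at 0.73.

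With all 11 libraries the wider lists gave no call in limma in any of the 8 comparisons. That was 0 of 15 tested T cell receptor genes, 0 of 21 other T cell identity genes, 0 of 19 NK and cytotoxic genes and 0 of 16 genes of the common gamma chain family. Of all genes, 2.83% passed for palbociclib averaged over OPG-Fc, 0.0994% for the combination against OPG-Fc and 0.0% in each other comparison. The lack of calls is therefore not a result about these lists. At an unadjusted p under 0.05, palbociclib against vehicle had 10 of the 15, 9 of the 21, 7 of the 19 and 5 of the 16, against 28.1% of all genes. The combination against palbociclib had 1, 0, 1 and 0 in the same order, against 6.75% of all genes. Median fold changes of the 4 lists against vehicle were -1.40, -1.32, -0.92 and -0.30 with OPG-Fc and -2.29, -1.91, -1.27 and -0.27 with palbociclib. These medians turned on the libraries kept. Without vehicle replicate 2 and OPG-Fc replicate 2, where fewer genes of some lists were tested, those for OPG-Fc were 0.25, -0.07, -0.24 and -0.03. For palbociclib they were then -0.25, -0.24, -0.19 and -0.04.

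Genes outside the lists with the profile most like the 10 were sought by a fixed measure. Over all 11 libraries the smallest root mean square difference from the centred mean of the 10 genes, among 12926 candidates, was that of Sh2d2a, an adaptor of T cells (0.121 on the log2 scale). Others near it were Cd96, a receptor of T and NK cells (0.176), Carmil2 (0.241), the integrin chain Itgb7 (0.248) and Pglyrp2 (0.25). Sh2d2a was at 26.8 in vehicle replicate 2, 4.94 in OPG-Fc replicate 2 and 0.37 to 1.27 in the rest. Over the 9 libraries the highest Pearson's r with that mean, among 12626 candidates, was that of Izumo1r (0.965), Sh2d2a (0.953), the class II MHC gene H2-Eb1 (0.928), H2-Ab1 (0.906), Zcchc3 (0.905) and H2-Aa (0.894). These r were the highest of many and are given as a description.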

How the data were processed

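RNA of 11 tumours was sequenced after poly(A) selection. HISAT, Bowtie2 and RSEM are named per the submitters' processing notes, with the builds GRCm39 and mm39, but their versions and roles are not given in the sources used here. The authors deposited FPKM values, in 1 table of 17181 genes by 11 libraries. The FPKM of a library summed to 576699 to 864670. Steps between low values were searched for whole reads in 355 short genes, and at best 35.6% to 48.1% of values lay within 0.1 read of a whole number, where an even spread gives 20%, so read depth is unknown and no counting interval is given.

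Groups were taken from the treatment labels. Values were used as log2(FPKM + 1), which understates changes of low genes. A gene was kept if 2 or more libraries had an FPKM of 1 or above, which held for 13074 genes and all 10 T and NK cell genes. The kept genes were fitted by group over all 11 libraries (limma 3.58.1, R 4.3.3; trended variance prior). In each of 8 comparisons p was adjusted by Benjamini-Hochberg across the kept genes, and a gene passed if its adjusted p was under 0.05. The 14 lists of genes, that of the 10 genes among them, and the alternatives were chosen with earlier results of these data known. All 10 genes were named with their values, and in each comparison the 2 with the smallest p were given with fold change and standard error. The 6 nearest genes by each measure of likeness were named, except 1 that is not reported here, and other genes were taken from the lists. The Il2rg values beyond that rule, Gzmc to Gzmg, and the examples from the lists were chosen after their values were seen. Trac, Trbc1, Trbc2, Trdc, Rag1, Rag2, Il9, Fdcsp and Tpsab1 were not analysed here. The fit was tested on simulated data of 12857 genes, for the combination against palbociclib. It recovered 59 of 100 genes changed by 1 and 99 of 100 changed by 3 on the log2 scale, with 10 false calls. The simulated spread was taken without vehicle replicate 2, and only genes with a mean log2(FPKM + 1) above 3 were changed. The recovery therefore does not describe the fit with that library or genes of lower level. Promoter letters came from RefSeq tables. Alternatives were another pseudocount (0.1), dropping the filter or raising it to an FPKM of 5, quantile normalization, no variance trend, a replicate block and leaving out libraries. Exact permutations were run in Python 3.11.15 and plots drawn with matplotlib 3.10.9.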

Additional observations from a re-analysis of the deposited data

How the results depend on the processing

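In the fit described above at most 2.83% of all genes passed in a comparison. That share is not given for the settings named next, so their counts are not a result about the 10 genes. Of the 10 genes, 0 passed under another pseudocount, either filter, quantile normalization, no variance trend or the replicate block in each of the 8 comparisons. Without vehicle replicate 2 and OPG-Fc replicate 2, 1 passed for OPG-Fc averaged over palbociclib. Leaving out 1 library at a time gave 0 to 9 passing genes in the 3 comparisons with vehicle, for each drug averaged over the other and for the interaction, with 9 only without vehicle replicate 1, and 0 throughout for the combination against either drug. The median log2 fold change of the 10 genes without both libraries was -0.13 for OPG-Fc, -0.41 for palbociclib and -0.10 for the combination against vehicle, -0.20 for palbociclib averaged over OPG-Fc and 0.15 for the interaction. Leaving out 1 library gave medians of -3.56 to 0.47 (OPG-Fc), -4.19 to -0.41 (palbociclib) and -4.04 to -0.10 (combination) against vehicle, -0.10 to 0.36 for the combination against palbociclib, -1.17 to -0.05 against OPG-Fc, -2.37 to -0.47 for palbociclib averaged, -1.74 to 0.31 for OPG-Fc averaged and -0.07 to 3.71 for the interaction. For OPG-Fc averaged over palbociclib, Il2rg changed sign to 0.02 with the replicate block and 0.73 without both libraries, and ran from -0.90 to 0.86 over the libraries left out, while Cd8a ran from -1.73 to 0.01. Il2rg for the interaction ran from -0.09 to 3.43. At an FPKM of at least 5 instead of 1, 6 of the 10 genes were present in a library outside the 2. Whether replicate numbers pair the tumours could not be settled. Of 15 pairs with 1 number, 5 had deviations from the group mean correlated above 0.1 (r from -0.41 to 0.53). The highest r was that of vehicle replicate 2 with OPG-Fc replicate 2, and the deviations of the 2 vehicle libraries mirror each other by construction. Under the replicate block 0 of the 10 genes passed in limma in any comparison. Read depth is unknown, which limits what can be said of values near an FPKM of 1.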
